A study of Mus musculus with 6 samples.

Results

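The BCL2 family decides whether the outer mitochondrial membrane of a cell stays closed or is opened during apoptosis. The 10 family genes described here are Bcl2, Bcl2l1 and Mcl1, Bax and Bak1, and Bid, Bad, Bbc3, Pmaip1 and Bcl2l11. They were followed in BV2 cells, an immortalized mouse microglial line, that did or did not overexpress PGC-1α, all treated with LPS, the bacterial lipopolysaccharide. Their probes were chosen through the transcript accession that the array design gives each spot, matched to mouse RefSeq genes, and every probe was kept. This gave 19 probes for the 10 genes, out of 56605 probes and 23462 matched genes on the array. Mcl1, Bak1, Bid, Bad, Bbc3 and Pmaip1, 6 genes in all, had 1 probe each, whereas Bcl2 and Bax had 2, Bcl2l11 had 4 and Bcl2l1 had 5.

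BCL2 proteins fall into 3 groups. The guardians (BCL2, BCL-XL from Bcl2l1, and MCL1) keep cells alive by holding their proapoptotic relatives, the effectors (BAX and BAK) form pores through which cytochrome c leaves the mitochondrion, and the BH3-only proteins (BID, BAD, PUMA from Bbc3, NOXA from Pmaip1, and BIM from Bcl2l11) sense stress and either block guardians or activate effectors. Released cytochrome c assembles the apoptosome, which activates caspases. In microglia and macrophages, inflammatory stimuli such as LPS are known to change the level of several of these genes, and PGC-1α, encoded by Ppargc1a, is a transcriptional coactivator known for mitochondrial biogenesis.

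The 6 arrays held RNA of 3 samples of control BV2 cells (without PGC-1α overexpression) and 3 samples of BV2 cells with PGC-1α overexpression, each on its own array. In the culture methods, the cells received a lentivirus with the PGC-1α coding sequence or a negative control, the overexpressing cells were selected with puromycin, and LPS was applied to BV2 cells at 500 ng/ml for 6 h, though the passage on LPS does not name the arrays. The labels do not say whether the 3 samples of a group were separate cultures, so p-values measure the spread between these samples, which may be technical. All cells belonged to 1 line, and in RNA from a whole culture a smaller number of cells with a transcript and less of it per cell cannot be told apart.

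The overexpression arrays were dimmer: the 75th percentile of their intensity ran from 856 to 1268, against 1617 to 1893 on the control arrays. Intensities were therefore compared as log2 values relative to the 75th percentile of their own array, called scaled log2 intensities here, and each log2 fold change is overexpression minus control. Under this scaling the median of all 38919 tested probes was itself 0.25, against 0.05 after quantile normalization, so members are also set against that median. The 2 Ppargc1a probes lay near background and neither met the filter (log2 fold changes without it of 1.14, standard error 0.41, limma adjusted p = 0.069, and 0.26, standard error 0.29, limma adjusted p = 0.49), so the labels could not be checked firmly on the targeted gene, and "overexpression" below means the arrays labelled so. Of 13 microglial markers 11 were tested, 5 were called higher and 1, Tmem119, lower (log2 fold change -2.68), and 0 of the 5 were also called higher after quantile normalization. Cx3cr1 and P2ry12 were well above background on 0 arrays. The summed level of the microglial markers, in units of the array's 75th percentile, ran from 93.7 to 97.1 on control and from 131 to 154 on overexpression arrays. Of markers of other cell types, the summed level ran from 0.241 to 0.278 in the controls and from 0.408 to 0.520 with overexpression for 3 astrocyte genes, 2 of them called higher under both scalings. It ran from 0.0529 to 0.0691 and from 0.0710 to 0.0932 for 2 endothelial genes, from 0.233 to 0.350 and from 0.262 to 0.317 for 4 oligodendrocyte genes, and from 24.2 to 29.7 and from 36.5 to 49.8 for 3 neuronal genes, led by Snap25, which was bright on every array. After quantile normalization the log2 fold change of Snap25 was 0.08 (limma adjusted p = 0.60). Without Snap25, the summed level of the markers of other cell types ran from 2.50 to 2.83 in the controls and from 2.02 to 2.34 with overexpression. This sum was mostly Tubb3, whose mean scaled log2 intensity was 1.04 in the controls and 0.41 with overexpression. The next brightest of these genes, Aqp4, had -2.50 and -1.64, so the lower sum does not describe the other genes. The neuronal Rbfox3, the endothelial Cldn5 and the oligodendrocyte Mobp were called higher under both scalings. The neuronal Tubb3 was called lower. The part of these shifts in the values below was not tested.

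Of the 10 members, 3 had a probe called lower under both scalings, the BH3-only genes Bid and Bcl2l11 and the guardian Bcl2. This was 3 of 18 tested member probes, against 18.0% of all tested probes. Other probes of Bcl2 and Bcl2l11 were not called lower. The proximal promoters of Bid, Bcl2 and Bcl2l11 are printed here so that they can be read as sequence. They come from RefSeq (GRCm38.p6), run 5′ to 3′ on the gene's strand from 250 bases before to 50 after an annotated start, and show in capitals every match to 5 motifs searched on both strands: AP-1 (TGANTCA), E-box (CACGTG), ERR (AAGGTCA), FOXO (TGTTTAC) and GC box (GGGCGG).
Bid (chr6:120916775-120917074, minus strand): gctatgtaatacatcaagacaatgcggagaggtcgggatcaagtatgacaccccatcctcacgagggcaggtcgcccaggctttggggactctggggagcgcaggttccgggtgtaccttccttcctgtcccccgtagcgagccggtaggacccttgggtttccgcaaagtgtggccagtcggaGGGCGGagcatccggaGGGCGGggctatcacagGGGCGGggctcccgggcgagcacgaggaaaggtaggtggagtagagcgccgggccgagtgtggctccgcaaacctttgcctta
Bcl2 (chr1:106714241-106714540, minus strand): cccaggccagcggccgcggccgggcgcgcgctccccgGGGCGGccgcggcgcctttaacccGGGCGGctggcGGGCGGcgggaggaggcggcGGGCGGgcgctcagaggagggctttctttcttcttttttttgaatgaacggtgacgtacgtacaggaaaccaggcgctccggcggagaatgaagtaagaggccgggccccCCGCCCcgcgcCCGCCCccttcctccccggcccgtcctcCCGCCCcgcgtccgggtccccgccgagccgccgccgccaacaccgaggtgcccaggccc
Bcl2l11, upstream start (chr2:128125788-128126087, plus strand): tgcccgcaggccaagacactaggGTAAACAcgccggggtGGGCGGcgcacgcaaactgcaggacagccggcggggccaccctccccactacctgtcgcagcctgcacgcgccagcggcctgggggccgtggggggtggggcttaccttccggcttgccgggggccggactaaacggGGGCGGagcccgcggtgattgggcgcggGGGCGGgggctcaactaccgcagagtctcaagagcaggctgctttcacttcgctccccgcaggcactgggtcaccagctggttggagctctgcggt
Bcl2l11, downstream start (chr2:128127325-128127624, plus strand): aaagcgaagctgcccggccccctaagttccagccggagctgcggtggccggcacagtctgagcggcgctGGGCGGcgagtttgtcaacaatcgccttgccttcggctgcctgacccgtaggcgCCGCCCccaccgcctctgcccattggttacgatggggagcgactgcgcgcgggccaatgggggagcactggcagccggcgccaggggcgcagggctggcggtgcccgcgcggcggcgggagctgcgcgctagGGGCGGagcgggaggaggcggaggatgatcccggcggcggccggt
GC boxes made up 16 of the 17 matches in these 4 windows, with 3 in Bid, 7 in Bcl2 and 3 at each start of Bcl2l11. The other match was a FOXO motif, read on the reverse strand as GTAAACA, at the upstream start of Bcl2l11. Of 32851 RefSeq mouse promoters of this length, 35.7% held a GC box and 3.65% a FOXO motif, while AP-1, E-box and ERR motifs, held by 7.81%, 7.15% and 4.72% of promoters, had no match in these 4 windows. The windows were rich in GC, at 63.3% for Bid, 76.0% for Bcl2, and 71.0% and 74.0% for Bcl2l11, against a median of 52.7% over all promoters. Members without a probe called lower differed in this. Windows of Bbc3 had 74.7% to 78.0% GC and 4 to 7 GC boxes, with a FOXO match at 1 start and an E-box at another. Windows of Bcl2l1 had 49.3% to 55.7% GC and 0 GC boxes, with an ERR match at 1 start. That of Bak1 had 58.3% GC and 0 GC boxes, and that of Bax had 57.3% GC, 3 GC boxes and 2 E-boxes. Windows of Bad had 65.7% to 66.0% GC and 0 to 4 GC boxes, and that of Mcl1 had 65.7% GC and 1 GC box. GC boxes and FOXO matches were thus not particular to the 3 genes. A match describes letters only, and expression arrays do not measure whether a factor bound there.

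Of the 19 probes, 18 could be tested. All 18 were well above background on all 6 arrays and none was saturated, and their mean signals lay between the 35.2 and the 94.0 percentile of all tested probes. At a limma adjusted p below 0.05, 3 probes were higher on the overexpression arrays (Bak1, Bbc3 and 1 of Bcl2l11), 3 were lower (Bid, 1 of Bcl2 and 1 of Bcl2l11) and 12 did not pass. Among all tested probes 35.4% were called higher and 18.4% lower, 53.8% together. A share of 6 in 18 was thus below that of the array as a whole, and lower calls were about as frequent as elsewhere. After quantile normalization, 22.9% of all probes were called higher and 20.6% lower (43.5% together), and of the members limma called 0 higher and the same 3 lower, with 2 and 3 at an unadjusted p below 0.05 (0 and 3 were also the numbers called under both scalings, against 22.8% and 18.0% of all probes). At an added log2 fold change of at least 1 in either direction, 0 members were higher and 2 lower (Bid and Bcl2l11 probe 2), against 8.13% and 8.40% of all probes. The median log2 fold change of the 18 probes was 0.24, or -0.01 relative to the median of all probes, and -0.05 after quantile normalization. Values did not overlap between the groups for 9 of the 18 probes, 5 higher and 4 lower, while 63.6% of all probes with complete values did not overlap. Each of those 9 probes had an exact permutation p of 0.1 (two-sided), the smallest that 6 arrays in equal groups allow.

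**Figure D1:**
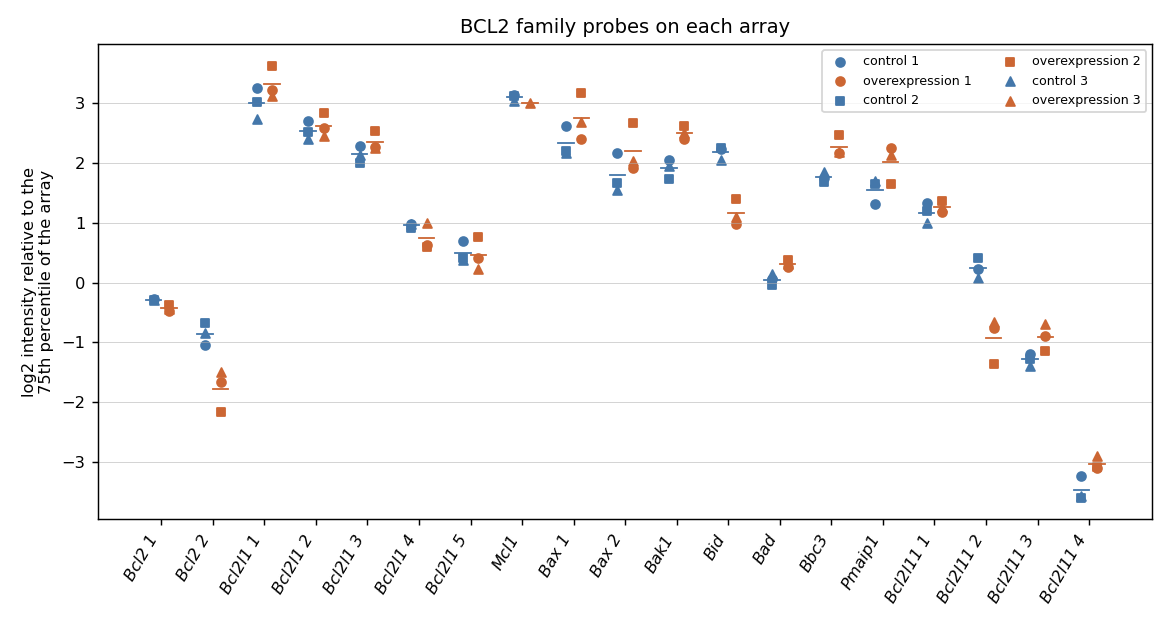
Scaled log2 intensity (relative to the 75th percentile of the array) of the 19 BCL2 family probes on each array, controls in blue and overexpression in orange, with marker shapes for replicate numbers and short bars for group means. Bid, Bcl2 probe 2 and Bcl2l11 probe 2 are lower on all 3 overexpression arrays, Bak1 and Bbc3 are higher on all 3, and Mcl1 has only 1 overexpression value because its other spots were marked as outliers.

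Among the guardians, the 2 probes of Bcl2 gave unlike values. BCL2 is the founding member of the family and protects the outer mitochondrial membrane. The first probe, designed on the transcript NM_177410, had scaled log2 intensities of -0.28, -0.28 and -0.30 in the controls and -0.47, -0.37 and -0.44 with overexpression. The values did not overlap, but the difference was small and did not pass, with a log2 fold change of -0.14 (standard error 0.12, 95% interval -0.42 to 0.14, limma adjusted p = 0.35).

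The second Bcl2 probe, designed on NM_009741, had -1.05, -0.68 and -0.84 in the controls and -1.66, -2.17 and -1.50 with overexpression. Every overexpression array was below every control array, and overexpression replicate 2 was the lowest. The probe fell by 0.92 on the log2 scale (standard error 0.20, limma adjusted p = 0.0073), a 1.89-fold lower signal, and by 0.90 after quantile normalization (limma adjusted p = 0.0100). It fell by 1.05 within slide 1, which carried replicates 1 and 2 of both groups, and by 0.65 within slide 2, which carried replicate 3 of both. Relative to the first probe on the same array, the second was 0.78 lower on the overexpression arrays than on the controls, a contrast chosen after the values were seen and given without a test. Which transcripts each probe detects beyond the accession it was designed on was not tested.

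Bcl2l1, which encodes BCL-XL, had 5 probes and none was called under the main scaling. The brightest had 3.25, 3.02 and 2.73 in the controls and 3.23, 3.63 and 3.13 with overexpression. The groups overlapped. Its log2 fold change was 0.33 (standard error 0.19, limma adjusted p = 0.18), and it was -0.13 after quantile normalization (limma adjusted p = 0.59), so the direction depended on the scaling. The other 4 probes had log2 fold changes of 0.08, 0.21, -0.22 and -0.03. Their quantile-normalized values were -0.26, -0.08, -0.29 and -0.06. The 95% intervals of the 5 probes together spanned -0.56 to 0.77, and each included 0.

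Mcl1, a short-lived guardian that many stress signals deplete, could not be tested, because the scanner software had marked its single spot as an outlier on overexpression arrays 1 and 2. Its scaled log2 intensities were 3.14, 3.12 and 3.03 on the control arrays and 3.00 on the remaining overexpression array. With the marked spots kept, a choice made after seeing the data, the overexpression values became 3.15, 3.35 and 3.00, which overlapped the controls. The log2 fold change was then 0.07 (standard error 0.14, limma adjusted p = 0.69). Quantile normalization of the same spots gave -0.38 (standard error 0.11, limma adjusted p = 0.032), so neither direction nor call was stable for this gene.

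Of the effectors, Bak1 was called and Bax was not. BAX, the product of Bax, moves from the cytosol to the mitochondrion when activated. Its first probe had 2.61, 2.21 and 2.17 in the controls and 2.41, 3.17 and 2.69 with overexpression, and the second had 2.17, 1.66 and 1.55 against 1.91, 2.66 and 2.04. The groups overlapped in both, with overexpression replicate 1 within the control range in the first probe and replicates 1 and 3 in the second. The log2 fold changes were 0.43 (standard error 0.22, limma adjusted p = 0.13) and 0.41 (standard error 0.24, limma adjusted p = 0.18), and 0.08 and 0.17 after quantile normalization. The 2 Bax probes thus gave nearly equal estimates, and neither passed.

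Bak1 encodes BAK, which sits in the outer mitochondrial membrane. Its scaled log2 intensities were 2.05, 1.74 and 1.95 in the controls and 2.40, 2.61 and 2.50 with overexpression. Every overexpression array was above every control array. The log2 fold change was 0.59 (standard error 0.14, limma adjusted p = 0.011), or 0.35 above the median of all probes, with 0.61 within slide 1 and 0.56 within slide 2. The call was lost after quantile normalization, where the log2 fold change was 0.32 (limma adjusted p = 0.075). Before any scaling, its intensities were 6718, 5436 and 7300 in the controls and 6104, 5235 and 7196 with overexpression. These overlapped, so the rise of Bak1 was a rise relative to the rest of a dimmer array.

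**Figure D2:**
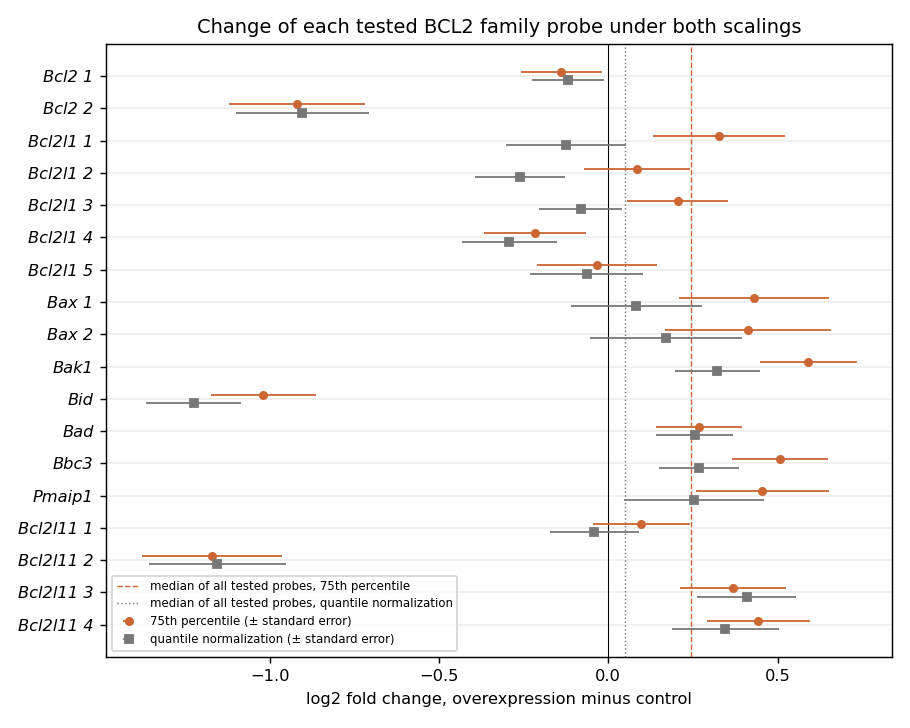
Log2 fold change (overexpression minus control, horizontal axis) of the 18 tested probes with ± 1 standard error, after scaling to the 75th percentile (orange circles) and after quantile normalization (grey squares); vertical lines mark the median of all tested probes, 0.25 and 0.05. Bid, Bcl2 probe 2 and Bcl2l11 probe 2 lie near -1 under both scalings, whereas Bak1 and Bbc3 move toward 0 after quantile normalization.

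The balance of effectors and guardians was examined within each array, where an array-wide scaling factor cancels. For Bak1 minus Bcl2 (brightest probes), the difference of log2 intensities was 2.33, 2.02 and 2.24 in the controls and 2.87, 2.98 and 2.94 with overexpression. The groups did not overlap, and the shift toward Bak1 was 0.73 (standard error 0.10, exact permutation test, two-sided, p = 0.1, adjusted over 4 pairs p = 0.4). After quantile normalization the shift was 0.44, and with the mean of each gene's probes it was 1.12. The shift was 0.57 for Bax minus Bcl2 (exact permutation p = 0.2, adjusted p = 0.4), 0.26 for Bak1 minus Bcl2l1 (exact permutation p = 0.3, adjusted p = 0.4) and 0.10 for Bax minus Bcl2l1 (exact permutation p = 0.6, adjusted p = 0.6), with overlapping groups in these 3 pairs. After quantile normalization they were 0.20, 0.45 and 0.21, and with the mean of each gene's probes 0.95, 0.52 and 0.35. The sizes thus depended on the processing, while the sign stayed positive in these settings. Array weights were not applied to the pairs, but with them Bax probe 1 was 0.12 and Bcl2l1 probe 1 was 0.21, the opposite order. The pairs share probes, so their signs are not independent. The exact permutation test cannot give less than 0.1 with these arrays, and no other test was run on the pairs. With the marked Mcl1 spots kept, the shift was 0.36 for Bax minus Mcl1 (exact permutation p = 0.2) and 0.52 for Bak1 minus Mcl1 (exact permutation p = 0.1).

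**Figure D3:**
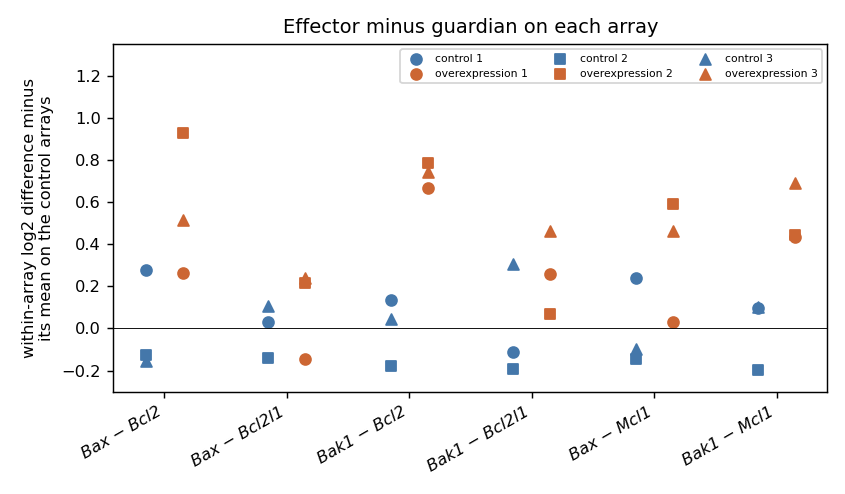
Difference of log2 intensities, effector minus guardian, on each array (vertical axis, with the mean of the 3 control arrays subtracted) for the 6 pairs, controls in blue and overexpression in orange. The overexpression arrays lie above the control arrays without overlap for Bak1 minus Bcl2 and Bak1 minus Mcl1, and the Mcl1 pairs use spots marked as outliers.

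Bid was the member with the lowest adjusted p. BID is cut by caspase-8 downstream of death receptors, and its truncated form links that pathway to the mitochondrion. The scaled log2 intensities were 2.23, 2.25 and 2.05 in the controls and 0.98, 1.39 and 1.10 with overexpression. All 3 overexpression arrays were below all 3 control arrays. Bid fell by 1.02 on the log2 scale (standard error 0.15, limma adjusted p = 0.0019), a 2.03-fold lower signal, or by 1.26 relative to the median of all probes. It fell by 1.22 after quantile normalization (limma adjusted p = 9e-04), by 1.06 within slide 1 and by 0.94 within slide 2. Before scaling, its intensities were 7579, 7760 and 7830 in the controls and 2275, 2250 and 2726 with overexpression. The groups lay apart there too, but on dimmer arrays this does not show a fall by itself. The brightest Bcl2l1 probe, which was not called, also lay apart unscaled (15422, 13196 and 12551 against 10836, 10592 and 11078).

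The 2 BH3-only genes best known as targets of p53, Bbc3 and Pmaip1, both had positive log2 fold changes, and Bbc3 was called. Bbc3, which encodes PUMA, had 1.75, 1.68 and 1.85 in the controls and 2.16, 2.47 and 2.18 with overexpression, without overlap. Its log2 fold change was 0.51 (standard error 0.14, limma adjusted p = 0.019), with 0.60 within slide 1 and 0.33 within slide 2. This was 0.26 above the median of all probes, and the call was lost after quantile normalization (0.27, limma adjusted p = 0.10). It was also lost when arrays were scaled to their median (0.40, limma adjusted p = 0.059), with normexp and quantile normalization (0.28, limma adjusted p = 0.081), with the authors' log2 values (0.26, limma adjusted p = 0.10), and without control replicate 1 (0.50, limma adjusted p = 0.053) or control replicate 2 (0.47, limma adjusted p = 0.068).

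Pmaip1, which encodes NOXA, a partner of MCL1, had 1.32, 1.65 and 1.70 in the controls and 2.25, 1.65 and 2.14 with overexpression. The groups overlapped through overexpression replicate 2. Its log2 fold change of 0.45 (standard error 0.20, limma adjusted p = 0.082) did not pass. It was 0.21 relative to the median of all probes and 0.25 after quantile normalization (limma adjusted p = 0.35). Without overexpression replicate 2 it was 0.64 (limma adjusted p = 0.019).

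Bad encodes a BH3-only protein that survival kinases such as AKT keep inactive by phosphorylation. Its scaled log2 intensities were 0.05, -0.05 and 0.14 in the controls and 0.25, 0.38 and 0.31 with overexpression. The groups did not overlap. The log2 fold change of 0.27 (standard error 0.13, limma adjusted p = 0.11) did not pass and was 0.02 above the median of all probes.

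Bcl2l11 was called in both directions. It encodes BIM, which binds all guardians and is made in several spliced forms. The first of its 4 probes, designed on NM_207680, had 1.33, 1.19 and 0.99 in the controls and 1.18, 1.36 and 1.26 with overexpression. The groups overlapped, and the log2 fold change was 0.10 (standard error 0.14, limma adjusted p = 0.58).

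The second Bcl2l11 probe, designed on the same accession, had 0.23, 0.42 and 0.09 in the controls and -0.76, -1.36 and -0.65 with overexpression. All overexpression values were below all control values. The probe fell by 1.17 on the log2 scale (standard error 0.21, limma adjusted p = 0.0034), a 2.25-fold lower signal, and by 1.15 after quantile normalization (limma adjusted p = 0.0046). It fell by 1.38 within slide 1 and by 0.74 within slide 2. Of the 18 probes it had the most negative log2 fold change under the main scaling.

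The remaining pair of Bcl2l11 probes, designed on NM_001284410, had positive log2 fold changes. The third had -1.19, -1.27 and -1.39 in the controls and -0.89, -1.15 and -0.70 with overexpression, and the fourth had -3.24, -3.60 and -3.57 against -3.10, -3.08 and -2.89. In both, the groups did not overlap, by a small margin. Their log2 fold changes were 0.37 (standard error 0.16, limma adjusted p = 0.077) and 0.44 (standard error 0.15, limma adjusted p = 0.039). The call of the fourth was lost after quantile normalization (0.35, limma adjusted p = 0.12) and in 10 other settings, 5 of which left out 1 array (any but control replicate 1). Against the second probe on the same array, the third was 1.54 higher on the overexpression arrays than on the controls, again a contrast chosen after the values were seen. For Bcl2l11 and Bcl2 alike, a single value per gene would therefore depend on the probe taken. The brightest probe gave 0.10 for Bcl2l11 and -0.14 for Bcl2. With the mean of its probes Bcl2 was called lower (-0.53, limma adjusted p = 0.011).

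**Figure D4:**
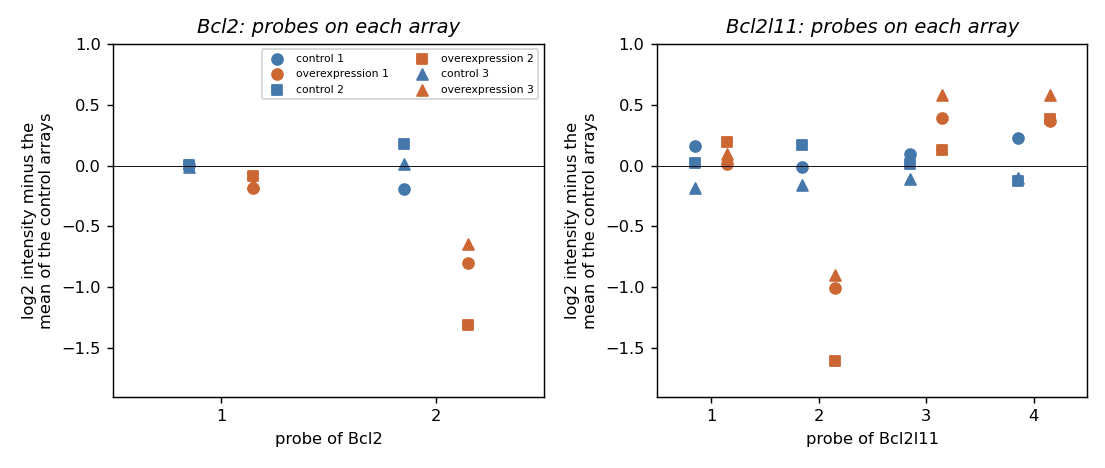
Log2 intensity of each probe of Bcl2 (left) and Bcl2l11 (right) on each array, with the mean of the 3 control arrays subtracted (vertical axis), controls in blue and overexpression in orange. Probe 2 of both genes is lower on all 3 overexpression arrays, while probe 1 of Bcl2l11 overlaps and its probes 3 and 4 are higher.

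Other BCL2 family genes, outside the 10 members, were read from a fixed list of 12, each by its brightest tested probe. Of these 10 were matched on the array and 9 tested, of which 1 was higher, 4 were lower and 4 did not pass. Among all 17062 genes tested in this way 34.8% were higher and 18.5% lower, 53.3% together. The median log2 fold change of the 9 was -0.08, against 0.23 for all genes. The BH3-only gene Bmf, whose product is held at the cytoskeleton by dynein light chains, had -0.29, -0.45 and -0.46 in the controls and -4.16, -3.83 and -3.26 with overexpression. These groups were far apart. Bmf fell by 3.35 on the log2 scale (standard error 0.22, limma adjusted p = 7.3e-05), a 10.2-fold lower signal, and both of its probes were called lower. Bik, another BH3-only gene, fell by 0.93 (standard error 0.17, limma adjusted p = 0.0037). Bcl2a1d, a guardian of the A1 group, fell by 0.89 (standard error 0.15, limma adjusted p = 0.0025), although its near-identical paralogs could share its probe. Bcl2l14, named because it completes the count, fell by 0.74 (limma adjusted p = 0.0071). All 4 were also lower after quantile normalization, under which 21.4% of all genes were higher and 21.1% lower, 42.4% together. Bcl2l13, a mitochondrial outer membrane protein also known as a mitophagy receptor, was called higher only under the main scaling (0.50, limma adjusted p = 0.026, and 0.05 after quantile normalization).

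Downstream of the mitochondrion, 16 genes of the apoptosome, the caspases, the inhibitors of apoptosis (IAPs) and their antagonists were tested, of which 4 were higher, 4 lower and 8 did not pass, with a median of -0.00. The 8 of 16 called were near the share over all genes (53.3%, with 34.8% higher and 18.5% lower). After quantile normalization 1 of the 4 higher calls and the 4 lower ones were kept and 2 lower ones were gained, which made 1 higher and 6 lower with a median of -0.18. Birc3, which encodes the IAP cIAP2, fell by 1.42 (standard error 0.14, limma adjusted p = 2.9e-04). Xiap, the direct caspase inhibitor, fell by 1.21 (standard error 0.35, limma adjusted p = 0.022) on 1 of its 2 probes. Dffa, the inhibitor of the DNase that fragments chromatin in apoptosis, fell by 0.62 (limma adjusted p = 0.0056). Apaf1, the scaffold of the apoptosome, was called higher on its brighter probe (1.24, standard error 0.13, limma adjusted p = 4.4e-04) and lower on its other, so its direction was not settled. Endog, a mitochondrial nuclease (0.52, limma adjusted p = 0.044), and Cycs, cytochrome c (0.50, limma adjusted p = 0.033), were called higher only under the main scaling.

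Regulators that induce, degrade, phosphorylate, sequester or cleave members made up a list of 18, all tested, of which 5 were higher, 4 lower and 9 did not pass. The 9 of 18 called were likewise near the 53.3% over all genes. All 9 calls were kept after quantile normalization and 2 lower ones were gained, which made 5 higher and 6 lower, and the median was 0.15 (-0.21 after quantile normalization). Ddit3 (CHOP), a factor of the stress response of the endoplasmic reticulum known to induce Bcl2l11 and repress Bcl2, had 2.90, 2.84 and 2.83 in the controls and 3.88, 4.27 and 3.97 with overexpression. The groups did not overlap, and the log2 fold change was 1.19 (standard error 0.15, limma adjusted p = 8.4e-04), or 0.70 after quantile normalization (limma adjusted p = 0.0030). Foxo3, known to induce Bcl2l11 and Bbc3, rose by 1.13 (standard error 0.15, limma adjusted p = 0.0010), and Trp73, a p53 relative, rose by 0.74 (standard error 0.14, limma adjusted p = 0.0041). Fbxw7, which marks MCL1 for degradation, fell by 2.24 (standard error 0.15, limma adjusted p = 8.0e-05), Myc by 1.09 (standard error 0.13, limma adjusted p = 6.6e-04) and E2f1, a cell cycle factor, by 0.76 (standard error 0.15, limma adjusted p = 0.0051). Whether any of these changes bears on the members was not tested.

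**Figure D5:**
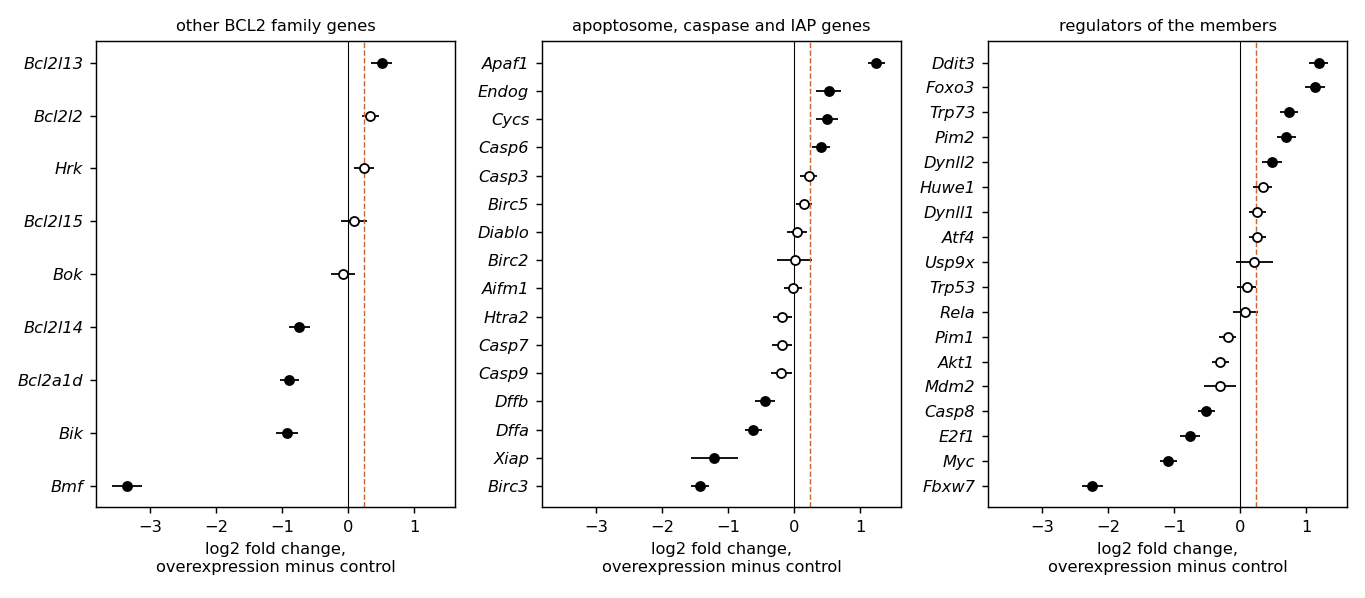
Log2 fold change (overexpression minus control, horizontal axis) ± 1 standard error of the tested genes of the 3 lists, with filled circles for a limma adjusted p below 0.05, open circles otherwise, and a dashed line at the median of all tested probes, 0.25. Bmf and Fbxw7 have the most negative values of their lists, and Apaf1, Ddit3 and Foxo3 the most positive ones among the apoptosome and regulator genes.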

How the data were processed

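RNA of the 6 BV2 samples had been amplified, labelled and hybridized to Agilent mouse arrays, and the study's methods name only a normalization in GeneSpring. The deposited scanner files hold green-channel intensity values that the authors' software, Agilent Feature Extraction 11.5.1.1, had corrected for background, with no scaling between arrays. The authors also deposited normalized log2 values of 42110 probes, whose scaling procedure is not given in the sources used here. They correlate with the log2 intensities of their own arrays (lowest r of 0.999 across probes, which are not independent) and served as an alternative. Their array medians ran from 8.293 to 8.294. Their median log2 fold change over the tested probes was 0.05, the same as after quantile normalization. These settings are therefore close to each other and not separate checks.

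Groups and replicates came from the sample titles, which do not name the slide. Control spots and spots marked as outliers (149 to 1590 an array) were left out, and repeated spots were averaged. Each log2 intensity was set relative to the 75th percentile of its array. Accessions were matched to RefSeq genes for 59.7% of probes. The array design names mm9, so no probe coordinates are given. Testing required values on 2 arrays per group, and a signal well above background throughout at least 1 group of 3 arrays (38919 probes, 1605 of them with an array missing). The two-sided test of the groups was limma's (version 3.58.1, lmFit then eBayes, under R 4.3.3), and p-values were adjusted by Benjamini-Hochberg over all tested probes. For lists, the brightest tested probe stood for a gene, with the adjusted p of the probe fit and the background counted over genes. The steps were tested on simulated data in which 200 of 38919 probes were changed. There 41% of changes of 1 log2 unit and 83% of changes of 2 were called, and 8.15% of calls were false. Far more probes were called in the real data, so these shares may not carry over. Correlations between arrays were 0.990 to 0.994 among controls, 0.983 to 0.994 among overexpression arrays and 0.939 to 0.965 between groups. Precision is limited by the number of arrays.

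The members and the lists were chosen with earlier results of these data known. Named were all 10 members with every probe, Ppargc1a, markers as counts, and of each list up to 3 genes with the largest rise and 3 with the largest fall among those called and not overlapping. Of 6 effector and guardian pairs, the 2 with Mcl1 needed marked spots. Alternatives were quantile normalization, the median, normexp with an offset of 50, other filters, a block for slide or replicate number, a variance trend, array weights, gene-level values, a log2 fold change of at least 1, the authors' log2 values and each array left out. Normexp used median signals.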

Additional observations from a re-analysis of the deposited data

How the results depend on the processing

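Bid, Bcl2 probe 2 and Bcl2l11 probe 2 kept their call as lower in every alternative that tested them as probes, except that Bcl2 probe 2 did not reach a log2 fold change of -1. The count of 3 higher member probes became 0 after quantile normalization, 0 with normexp and quantile normalization, 0 with the authors' log2 values, 0 at a log2 fold change of at least 1, 1 with the median and 6 with array weights, and ranged from 1 to 4 with 1 array left out. The count of 3 lower probes became 4 with array weights, 2 with the mean of each gene's probes and 1 with the brightest probe of each gene. It stayed at 3 with any array left out. The call added with array weights was Bcl2l1 probe 4 (-0.30, limma adjusted p = 0.017). All probes called, 20943 (13793 higher and 7150 lower), became 16921 (8908 and 8013) after quantile normalization, 6434 at a log2 fold change of at least 1, and 9633 or 9201 genes with the brightest or the mean probe, and ranged from 15583 to 21564 with 1 array left out. Apoptosome, caspase and IAP genes, 8 called, became 5 with the median and 4 without the background filter (4 to 6 with 1 array left out). Regulators, 9 called, became 14 with array weights (7 to 9), and the other BCL2 family genes, 5 called, ranged from 4 to 5 with 1 array left out and from 4 to 7 in the other settings. Log2 fold changes reversed only for probes that were not called. Bcl2l1 probe 1 was -0.13 after quantile normalization, -0.13 with normexp and quantile normalization and -0.13 with the authors' log2 values. Bcl2l1 probe 2 was -0.26, -0.28 and -0.26 in these, -0.026 with the median, and -0.019 to 0.17 with 1 array left out. Bcl2l1 probe 3 was -0.082, -0.10 and -0.081. Bcl2l1 probe 4 was 0.015 within slide 2, and probe 5 was 0.029 within slide 1 and -0.18 to 0.087 with 1 array left out. Bcl2l11 probe 1 was -0.041, -0.049 and -0.034 in the same 3 settings, -0.012 with the median, -0.0037 with array weights and -0.065 as a mean over the gene's probes. The cause was not tested. With the replicate number as a block 22803 probes were called, 3 member probes higher and 3 lower. Same-numbered arrays correlated at -0.21, 0.0031 and 0.59 in their deviations, and arrays of unlike number at -0.52 to 0.53. The numbers were therefore not taken to pair the samples. Same-numbered arrays lay on the same slide, and with the slide as a block 24083 probes were called, 3 member probes higher and 3 lower. Keeping outlier-marked spots (21550 probes called) was chosen after seeing the data. All 18 tested member probes were well above background, though the filter already required this in at least 1 group. The dimmest, Bcl2l11 probe 4, had intensities of 101 to 171, near the array medians of 81.6 to 161.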
